A study of Mus musculus with 18 samples.

Results

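Ribosome-bound mRNA, taken here as that of layer II neurons of the mouse entorhinal cortex, is described as it stood in control animals. The 4 libraries of the control OE group were taken, of 18 in the series, and no treatment was compared. The series examined Ptbp1, a splicing regulator, by silencing (5 Scrambled_shRNA and 4 Ptbp1_shRNA libraries) and by overexpression (4 control OE and 5 PTBP1 OE libraries). The control OE mice had been injected with a control-mCherry vector, both entorhinal cortices of a mouse were pooled, and each mouse gave 1 library. The submitters left out 1 further control mouse in which mCherry reads were lacking. Each library is labelled hippocampus as its tissue, but title and design text speak of entorhinal cortex, which is followed here. The labels do not state age, sex, strain, the cells that carried the tagged ribosomes or the time after injection. The controls are therefore injected animals, not untouched ones.

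Translating ribosome affinity purification (TRAP) pulls down tagged ribosomes from one kind of cell and sequences the mRNA they carry, so that a transcript's level reflects its presence on ribosomes rather than in the whole tissue. Layer II of the entorhinal cortex sends the perforant path, the main cortical input of the hippocampus. Its excitatory neurons fall mainly into reelin-positive cells, with stellate shapes, and calbindin-positive cells, with pyramidal shapes. These neurons are among the first to be affected in Alzheimer's disease.

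The libraries held 22957103, 26325826, 18288627 and 23313363 counts in genes, in libraries 1 to 4. Levels are given in 2 ways. CPM is a gene's count scaled to a fixed library total, after TMM adjustment, and serves to compare libraries. TPM is a gene's count divided by its summed exon length, scaled in the same way over protein-coding genes, and serves to compare genes. That length joins the exons of all annotated transcripts of a gene, so the order of genes by TPM depends on it. Values are means ± SD over the 4 libraries (n = 4). No group was compared and no p-value is given, because an exact sign-flip test over 4 libraries cannot go below p = 0.125. In such a purification, fewer cells of a type and less RNA per cell cannot be told apart.

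Library 1 stood apart. Over genes at 10 CPM or more it lay farthest from the mean of the 4 for 36.3% of genes, against 29.0%, 14.7% and 19.9% for libraries 2, 3 and 4. Spearman correlations between pairs of libraries across genes ran from 0.979 to 0.989. Several of the markers that library 1 sets apart are therefore given in every library and also as means of the other 3. Not every such marker is treated so.

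At a mean of at least 1 CPM, 14616 genes were detected, 12398 of them protein-coding. In every library 13583 genes reached that level. A mean of 10 CPM was reached by 9181 genes, 100 CPM by 2039 and 1000 CPM by 77. The counts were concentrated in few genes: the 100 top genes held 27.2% ± 1.59 of all counts, between 25.2% and 29.1%, and the 1000 top genes held 57.4% ± 1.28. Of the top 100 genes, 92 were protein-coding. TPM was computed for protein-coding genes, and 60 of the top 100 genes by CPM were also among the top 100 by TPM.

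The gene with the most counts was Gm42418 (chr17:39846958-39848788, GRCm38), a long intergenic non-coding RNA by its annotation. This locus is known to overlap a copy of the ribosomal RNA precursor, and the part of ribosomal RNA in its counts was not tested. It stood at 65621, 104711, 92295 and 94277 CPM, and took 8.89% ± 1.46 of all counts. It is absent from the exon bin files, and it stood first in each library. Other non-coding identifiers were lower by CPM. Gm23935, annotated as a miRNA, stood at 4094, 6877, 5003 and 3028 CPM, and the long non-coding 1700020I14Rik at 463, 794, 754 and 677 CPM, lowest in library 1. Mir6236 had 834, 1967, 1764 and 2102 CPM, also lowest in library 1. Protein-coding genes took 85.2% ± 1.48 of counts, while the mitochondrially encoded genes together took between 0.0627% and 0.110%.

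Snap25 was the highest protein-coding gene by CPM. It encodes the plasma membrane SNARE protein that drives synaptic vesicle fusion. It stood at 17580.0, 17970.5, 15038 and 13927 CPM in libraries 1 to 4, a mean of 16129 ± 1961 CPM and 11361 ± 1375 TPM. By TPM, Calm2, a calmodulin gene, was higher at 22825 ± 1126 TPM, with 7552, 6627, 7147 and 6687 CPM. Libraries 1 and 2 were above libraries 3 and 4 for Snap25, whereas library 1 was highest for Calm2. Calm3, which encodes the same calcium sensor, stood at 1530.4 ± 93.7 TPM.

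Between Snap25 and Vamp2 in the CPM order came genes of several functions. Among them were Ywhaz (5836 ± 339 TPM), an adaptor of the 14-3-3 family, Gapdh (4402 ± 507 TPM) of glycolysis, and Tuba1a (8715 ± 130.01 TPM), an alpha tubulin of growing neurites. Atp5b (3667 ± 361 TPM) encodes a subunit of the ATP synthase. Vsnl1 (6239 ± 801 TPM) encodes the neuronal calcium sensor visinin-like protein. Nsf (1313 ± 137 TPM) encodes the ATPase that takes SNARE complexes apart after fusion. Vamp2, the vesicle SNARE that pairs with Snap25, had 2585 ± 407 TPM, with 2158, 2395, 2059 and 1622 CPM. The remaining top genes by CPM included traffic and signalling genes. Rab3c (1112 ± 106 TPM) and Rab6b (2058 ± 117 TPM) encode small GTPases of vesicle traffic, Arf3 (3736 ± 414 TPM) an ADP-ribosylation factor of the Golgi, and Napb (1484 ± 82.1 TPM) the neuronal partner of Nsf. Kalrn (436 ± 69.7 TPM) encodes an exchange factor of dendritic spines, and Dclk1 (650.5 ± 54.6 TPM) a microtubule-associated kinase. Tubb4a, a beta tubulin, had 4120 ± 430.3 TPM. In the top 30 by TPM, the order between neighbours was mostly not resolved: of 29 neighbouring pairs, 25 had overlapping values and 4 kept the same order in all 4 libraries.

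**Figure D1:**
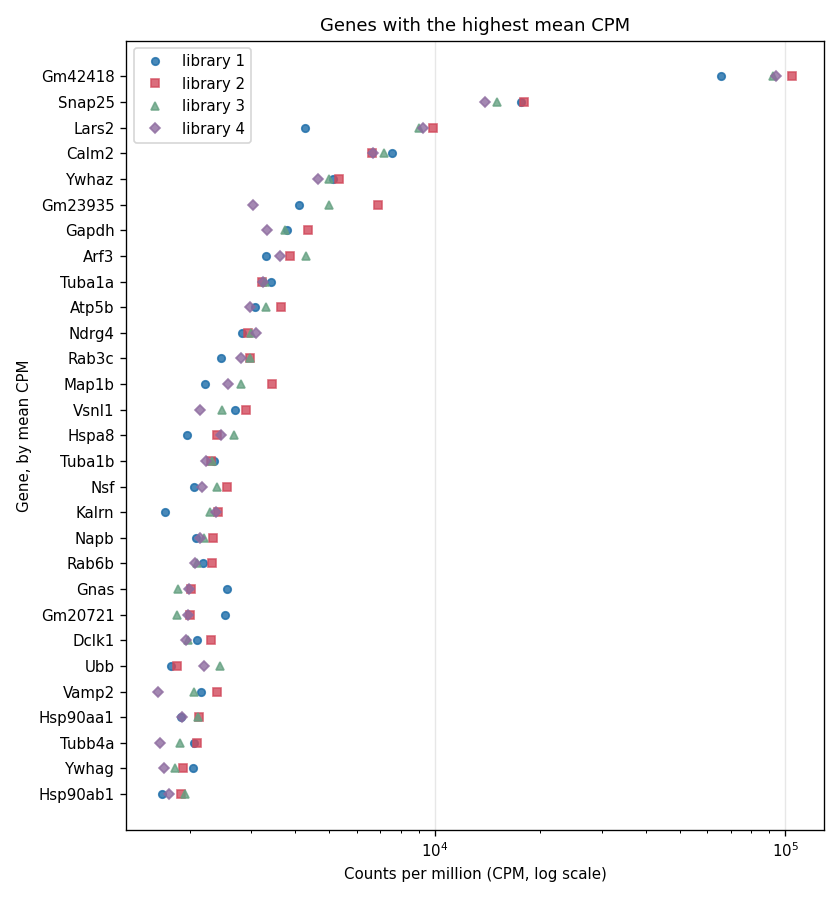
Level of 29 of the 30 genes with the highest mean CPM, 1 point per control OE library (n = 4), on a log axis in CPM. The non-coding Gm42418 stands above Snap25, and the libraries of most genes lie close together.

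Some of the high levels were uncertain. Lars2, at 4252, 9889, 9020.1 and 9272 CPM, or 9394 ± 447 CPM without library 1, had 99.7% of its exon bin counts in the last of its 21 bins. Tuba1b, Ubb, Tuba1c and Pgam1 had exon bin counts below 0.3 of their gene counts, which for all coding genes with at least 1000 counts was the case in 1.80%. Ubb encodes polyubiquitin, and the tubulins and Pgam1 have near-identical copies in the genome. Gm20721 (2086 CPM) overlaps Gnas (2104 CPM), so that reads at this locus were not told apart.

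The genes that name layer II neurons were present in every library. Reln, the reelin of the stellate cells (chr5:21884454-22344702), stood at 202, 342, 329 and 377 CPM, which is 63.1 ± 15.9 TPM. Library 1 was below the other 3, which alone gave 349 ± 24.7 CPM. Calb1, the calbindin of the pyramidal cells (chr4:15881264-15908064), went the other way: it stood at 144, 70.0, 73.8 and 82.0 CPM, which is 91.1 ± 33.4 TPM. Without library 1 its level was 75.3 ± 6.16 CPM. Per length, Reln ran from 40.2 to 76.6 TPM and Calb1 from 69.9 to 141 TPM, so the 2 ranges overlapped. By TPM, Calb1 was the higher of the 2 within each library, though in library 2 only at 69.9 against 69.7 TPM. By CPM, Reln was the higher in each library. The order by TPM thus rests on the summed exon lengths, 23738 bases for Reln and 4846 for Calb1. Other lengths were not tried for this pair.

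Camk2a, a kinase of excitatory neurons, stood at 1874, 1817, 1453 and 1365 CPM and 1042 ± 161 TPM. Slc17a7, the vesicular glutamate transporter of cortical neurons (chr7:45163949-45176142), had 608, 594, 524 and 590.1 CPM and 514 ± 35.3 TPM. Slc17a6, the other main vesicular glutamate transporter, had 32.98 ± 7.31 TPM. Expressed protein-coding genes had a median of 22.8 TPM, and each of these genes exceeded it in all 4 libraries.

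Of a list of 20 genes of layer II and superficial excitatory neurons, 20 had at least 1 CPM, with a median of 63.4 TPM. That median exceeded the level of 75.1% of expressed coding genes. Its members differed in level and in their order over libraries. Wfs1, marker of part of the pyramidal cells, had 61.1, 32.1, 58.4 and 41.1 CPM. Neurod6, a transcription factor of pyramidal neurons, had 95.6, 179, 174 and 142 CPM. Rorb, a nuclear receptor of the granular layers, had 51.4, 24.8, 29.1 and 29.0 CPM, or 27.6 ± 2.46 CPM without library 1.

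Pan-neuronal genes stood much higher, with a median of 717 TPM over 12 of 12 genes. Syn1, which tethers synaptic vesicles, had 2013 ± 276 TPM, Uchl1, a ubiquitin hydrolase, 1854 ± 238 TPM, and Nefl, the light neurofilament chain, 1104 ± 38.7 TPM. Tubb3 (741 ± 98.5 TPM) and Rbfox3 (342 ± 34.0 TPM), both general neuronal markers, were also high.

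By their list medians, markers of other cells were low, though single members were not. Of 12 microglial genes, 2 had at least 1 CPM, and the median was 0.903 TPM. Cx3cr1 had 0.175 TPM and Trem2 0.132 TPM, both receptors of these cells. The oligodendrocyte list had 7 of 11 genes at 1 CPM or more and a median of 4.32 TPM. Its members differed: Cnp had 81.2 TPM and Mbp, myelin basic protein, 39.2 TPM, both far above the list's median. Cnp also exceeded the median of the layer II list (63.4 TPM), and Mbp that of expressed coding genes (22.8 TPM). For precursors of oligodendrocytes, 4 of 7 genes reached 1 CPM, with a median of 1.37 TPM. For vessels the count was 6 of 11 and the median 1.65 TPM. The vessel genes summed to 49.7, 20.5, 12.9 and 54.2 CPM, higher in libraries 1 and 4 than in libraries 2 and 3. Among them was Cldn5, of the endothelial tight junction, at 1.22, 0.275, 0 and 0.467 CPM. The 0 in library 3 allows up to 0.166 CPM at that depth, as 3 counts, which covers counting error only.

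Astrocyte genes were all detected, 14 of 14, with a median of 6.28 TPM, above 21.2% of expressed coding genes. The list was uneven, and 5 of its 14 genes exceeded the median of expressed coding genes. Slc1a2, a glutamate transporter, had 417, 578, 532 and 646 CPM, which is 198 TPM. Atp1b2, a sodium pump subunit, had 168 TPM, Glul, glutamine synthetase, 91.0 TPM, and Aldoc, an aldolase, 77.7 TPM. Gfap had 9.69 TPM and Aqp4 3.85 TPM. Set against the pooled glial and vessel lists (median 2.64 TPM), the layer II list was higher by 4.74 ± 0.36 on the log2 scale, between 4.25 and 5.11 in the 4 libraries.

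**Figure D2:**
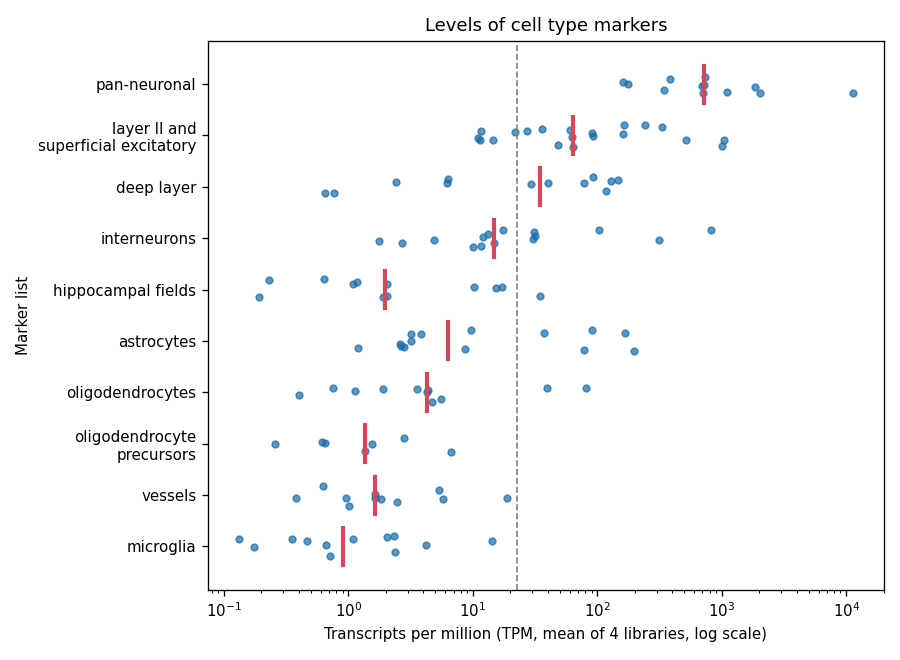
Mean TPM of each gene of the cell type lists on a log axis, with red bars at list medians and a dashed line at 22.8 TPM, the median of expressed coding genes. The medians of the pan-neuronal (717 TPM) and layer II (63.4 TPM) lists lie above those of the glial, vessel and hippocampal lists, while single glial genes such as Slc1a2 (198 TPM) reach above single layer II genes such as Reln (63.1 TPM).

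Inhibitory interneuron genes were detected too: 16 of 16 had at least 1 CPM, with a median of 14.7 TPM. Gad2 and Gad1, the enzymes of GABA synthesis, had 103 and 31.1 TPM. Sst, somatostatin, had 88.7, 47.3, 23.2 and 31.8 CPM, and Cck, a peptide also made by excitatory neurons, had 361, 193, 175 and 165 CPM. Per length these were 316 ± 189 TPM for Sst and 816 ± 329 TPM for Cck, both above Reln and Calb1. By mean CPM, Sst (47.7) and Cck (223) were below Reln (312), and Calb1 (92.5) lay between Sst and Cck. Library 1 was highest for both, with 34.1 ± 12.2 CPM for Sst and 177 ± 14.2 CPM for Cck in the other 3. Pvalb was lower at 17.4 TPM, Vip at 1.78 TPM and Slc32a1, the vesicular GABA transporter, at 10.1 TPM. The summed level of the list was 914, 590.2, 501 and 501 CPM, highest in library 1, where 13 of the 16 genes had their highest level, and 531 ± 51.7 CPM in the other 3. Over all genes at 1 CPM or more, 29.9% had their highest level in library 1.

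Deep layer cortical genes had 11 of 12 members at 1 CPM or more and a median of 34.8 TPM, lower than the layer II list by its median. Some members exceeded Reln (63.1 TPM) and Calb1 (91.1 TPM) per length: Crym, a thyroid hormone-binding protein, had 147 ± 42.3 TPM, Nr4a2, a nuclear receptor, 130.1 ± 27.2 TPM, and Etv1 118 ± 32.9 TPM. Etv1, a transcription factor of the deep layers, had 469, 276, 314 and 259 CPM, and Fezf2, which specifies corticofugal neurons, 88.3, 49.7, 40.5 and 22.7 CPM. Rprm had 22.8, 8.02, 8.77 and 10.1 CPM. Without library 1 the means were 283 ± 28.2 CPM for Etv1, 37.6 ± 13.7 CPM for Fezf2 and 8.96 ± 1.04 CPM for Rprm. The list summed to 1016, 751, 825 and 662 CPM, again highest in library 1, and to 746 ± 81.8 CPM in the other 3. Genes of hippocampal fields had 7 of 12 members at 1 CPM or more and a median of 1.98 TPM, with Prox1, of dentate granule cells, at 2.05 TPM, Dsp at 0.191 TPM and Bok, the highest of the list, at 34.5 TPM. Whether these levels speak to the tissue label, which reads hippocampus, was not tested. The blood list summed to 18.5, 18.7, 18.9 and 21.1 CPM, and 4 of its 5 genes had exon bin counts below 0.3 of their gene counts, which makes this sum uncertain.

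Library 1 also stood at either end for the layer II list. It was highest for 10 of its 20 genes and lowest for the other 10. Over all genes at 1 CPM or more, 29.9% were highest and 29.3% lowest in library 1, the shares against which such counts stand. Among the layer II genes named here, the order was mixed. Library 1 was highest for Calb1, Rorb and Nrgn, and lowest for Reln, Neurod6 and Lef1. Cbln4, which encodes a secreted synaptic organizer, was at 28.6, 96.2, 86.7 and 96.2 CPM, and 93.0 ± 5.51 CPM without library 1. Beside these markers, 13 of 16 interneuron, 6 of 11 deep layer and 4 of 7 hippocampal genes at 1 CPM or more were highest in library 1. The hippocampal list summed to 88.5 CPM there and to between 64.3 and 69.2 CPM in the others, and the astrocyte list to 685 CPM there and to between 833 and 988 CPM in the others. Of voltage-gated channels, 26 of 39 were lowest in library 1, against 29.3% of all genes at 1 CPM or more. Library 2 was lowest for 36 of 43 ribosomal protein genes and 26 of 37 nuclear respiratory chain genes, against 28.0% of all genes. The part of other cell types in these levels was not tested.

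**Figure D3:**
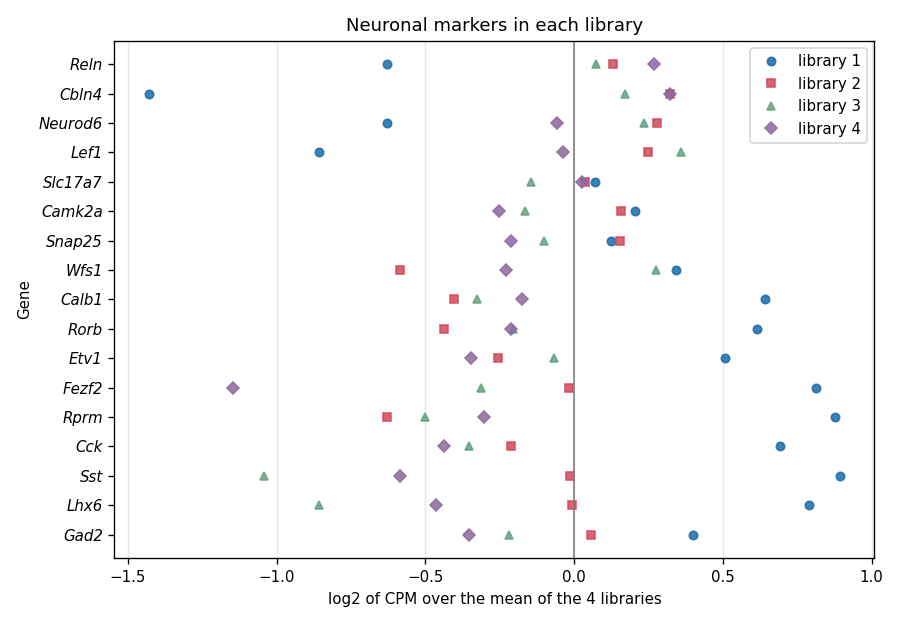
Level of neuronal markers in each of the 4 control OE libraries, as the log2 of CPM over the mean of the 4, with 1 point per library. Calb1, Cck, Rorb and Rprm are highest, and Reln and Cbln4 lowest, in library 1 (circles).

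Genes of synaptic release were among the most abundant groups. All 30 listed genes reached 1 CPM and 24 reached 100 TPM. Their median was 448 TPM, above 97.2% of expressed coding genes, and together they held 3.79% of counts. Beyond Snap25 and Vamp2 the high members included Syn1 and Cplx1 (1698 ± 237 TPM), the complexin that clamps fusion. Vamp1, the relative of Vamp2, had 19.7 ± 3.66 TPM, and Syn3 6.09 ± 1.24 TPM.

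Calcium and calmodulin signalling genes were likewise high: 28 of 28 reached 1 CPM and 24 reached 100 TPM, with a median of 385 TPM and 2.69% of counts. Ppp3r1, the regulatory subunit of calcineurin, had 1228 ± 73.6 TPM. Camkk2 (31.0 ± 3.60 TPM) and Ryr2 (17.8 ± 4.21 TPM), the kinase above CaM kinases and an intracellular calcium channel, stood lowest.

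Structural and metabolic genes stood beside them. Tubulins and microtubule-associated proteins had a median of 765 TPM over 22 of 22 genes and 2.04% of counts. Stmn1, a tubulin-binding protein of growing neurites, had 1801 ± 272 TPM, and Map1b 832 ± 165 TPM. Actin and neurofilament genes had a median of 465 TPM over 16 of 16, with Actb at 1911 TPM. The axonal motors, 17 of 17, had a median of 211 TPM, with Klc1, a kinesin light chain, at 978 ± 70.1 TPM and Kif1a, which carries synaptic vesicle precursors, at 490.1 ± 71.5 TPM.

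Glycolysis had a median of 756 TPM over 18 of 18 genes and 1.28% of counts. Aldoa, an aldolase, had 2960.1 ± 112 TPM, and Slc2a1, the glucose transporter of vessels and glia, 13.8 ± 3.82 TPM. Nuclear genes of the respiratory chain had a median of 495 TPM over 37 of 37, with Cox6a1 at 1750 ± 140 TPM and Ndufs1 at 59.9 ± 8.84 TPM. The mitochondrially encoded mRNAs, translated by other ribosomes, had 11 of 13 members at 1 CPM or more and a median of 44.1 TPM. Of these 13 genes, 6 had exon bin counts below 0.3 of their gene counts, so their levels are uncertain. Mt-Co1 was the highest at 279 TPM. Ion pumps had a median of 184 TPM over 13 of 13. Atp1b1, the beta subunit of the sodium pump, had 1733 ± 137 TPM.

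Genes of translation and protein folding were moderate to high. The cytosolic ribosomal proteins had a median of 398 TPM over 43 of 43 genes, of which 41 reached 100 TPM. Rplp1 had 1502 ± 174 TPM, while Rps19 had 39.2 ± 3.21 TPM. Translation factors had a median of 342 TPM over 18 of 18, with Eef1a1 at 1667 ± 78.2 TPM and Pabpc1 at 61.8 TPM. Chaperones and proteasome genes had a median of 366 TPM over 26 of 26 and 2.43% of counts, with Hspa8 at 2639 ± 340.4 TPM and Hsp90ab1 at 2884 ± 213 TPM.

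Receptors and channels stood lower than the release machinery by their medians. Glutamate receptors had 23 of 25 genes at 1 CPM or more and a median of 21.1 TPM, above 47.6% of expressed coding genes. Gria2 and Gria1, the AMPA receptor subunits, had 110.1 ± 7.82 and 107 ± 7.95 TPM, and Grin1, the obligate NMDA receptor subunit, 93.7 ± 16.4 TPM. Grin2b came out at 147 TPM, but its exon bin counts were 0.140 of its gene counts, which makes this level uncertain. Grin2c, an NMDA receptor subunit of cerebellar neurons, had 0.285 TPM. GABA receptors had 14 of 15 genes at 1 CPM or more and a median of 47.4 TPM, with Gabra6, of cerebellar granule cells, at 0.0810 TPM. Voltage-gated channels had a median of 28.2 TPM over 39 of 39 genes. Cacnb4, an auxiliary calcium channel subunit, had 274 TPM, and Hcn4, a pacemaker channel, 3.31 TPM. Postsynaptic scaffolds had a median of 97.2 TPM over 17 of 17, with Homer3 at 12.4 TPM.

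Regulators of splicing were well represented. All 32 reached 1 CPM, with a median of 103.8 TPM. Celf4 had 608 ± 43.4 TPM and Rbfox3, counted above, 342 ± 34.0 TPM. Ptbp2, the neuronal paralogue of Ptbp1, had 112, 109, 106 and 107 CPM, which is 56.6 ± 1.31 TPM. Ptbp1, which the series manipulates, had 17.1, 13.5, 9.88 and 12.2 CPM, which is 13.3 ± 2.96 TPM. Per length, Ptbp2 was higher than Ptbp1 in each of the 4 libraries.

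Genes associated with Alzheimer's disease had 24 of 27 members at 1 CPM or more and a median of 32.1 TPM. Aplp1 had 936 ± 112 TPM. App, the amyloid precursor, had 427, 538, 585 and 696 CPM, or 207 ± 42.6 TPM, and Mapt, tau, 318, 343, 296 and 285 CPM, or 197 ± 16.9 TPM. Trem2 and Cd33, of microglia, were at 0.132 and 0.196 TPM. Immediate early genes had a median of 26.6 TPM over 17 of 18 at 1 CPM or more. Egr1 stood at 317 ± 17.3 TPM, Arc at 49.98 ± 8.87 TPM and Fos at 12.8 ± 2.34 TPM. Neuropeptides and growth factors had 21 of 22 at 1 CPM or more and a median of 61.7 TPM. Cpe, which processes peptide precursors, had 1598 ± 297 TPM, and Olfm1, a secreted synaptic protein, 999 ± 101 TPM. Of 10 long non-coding RNAs found in the table, 8 had at least 1 CPM, Malat1 standing at 67.3, 109.8, 79.1 and 177 CPM.

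The 4 libraries agreed closely for most genes. The common biological coefficient of variation from edgeR was 18.2% over 14840 genes, and the median coefficient of variation of genes at 10 CPM or more was 11.5%, with 90% of genes below 21.1%. Tulp4, at 242, 239.9, 242 and 241 CPM, varied least. In 21 genes the coefficient of variation reached 50%.

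Some of the largest spreads came from a single library. Alg1, a mannosyltransferase, stood at 6.27, 112, 8.17 and 4.93 CPM. In library 2, 95.8% of its bin counts lay in bins 3 to 8, against 18, 25 and 15 counts there in libraries 1, 3 and 4. Mterf1a and Mterf1b, related mitochondrial transcription factors, had 204 and 163 CPM in library 2 and at most 3.42 and 2.38 CPM in the others. Tbc1d22a was at 112 CPM in library 3 and at 20.9 to 24.4 CPM in the others, but its exon bin counts were 398, 363, 346 and 405. Doc2b, a calcium sensor of exocytosis, was highest in library 1 at 59.1 CPM, and its 692 bin counts there stood against 150 to 285 in the others. Without library 1, Doc2b had 17.0 ± 3.64 CPM.

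The exon bin files show which forms of a transcript were bound. A bin is a stretch of exon that the counting keeps apart. A constitutive bin lies in every coding transcript whose coding stretch spans it. Coding transcripts that start or end elsewhere may lack it, so full inclusion does not mean presence in all coding mRNA of the gene. Bins that only a minority of the coding transcripts span are not counted as constitutive. Inclusion is the bin's count per effective base (its length plus 113 bases, to allow for reads that only partly overlap it) over the median of the gene's constitutive bins. The density of constitutive bins rose from 0.704 of their gene's median in the first 10% of its bins to 1.15 in the last 10%, so inclusion is also given against the flanking constitutive bins, up to 2 on each side. That second reference was chosen after the trend had been seen. Single exons are given against their flanks, and the value against the gene's median is added where it lies on the other side of 0.2 or 0.8 or differs by over 1.5 times.

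Cassette bins lie in some of the coding transcripts that span them and not in others. Of 1282 such bins in 571 genes, 485 (37.8%) had an inclusion of at least 0.8, 394 (30.7%) of at most 0.2, and 403 lay between. Of 16652 constitutive bins measured the same way, 69.2% reached 0.8 and 1.68% were at most 0.2. Against flanking bins the counts were 521 and 371. Restricted to whole exons and set against flanking bins, 568 cassette exons in 359 genes gave 236 (41.5%) at least 0.8, 147 (25.9%) at most 0.2 and 185 between. The median SD of an inclusion over the 4 libraries was 0.0616.

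**Figure D4:**
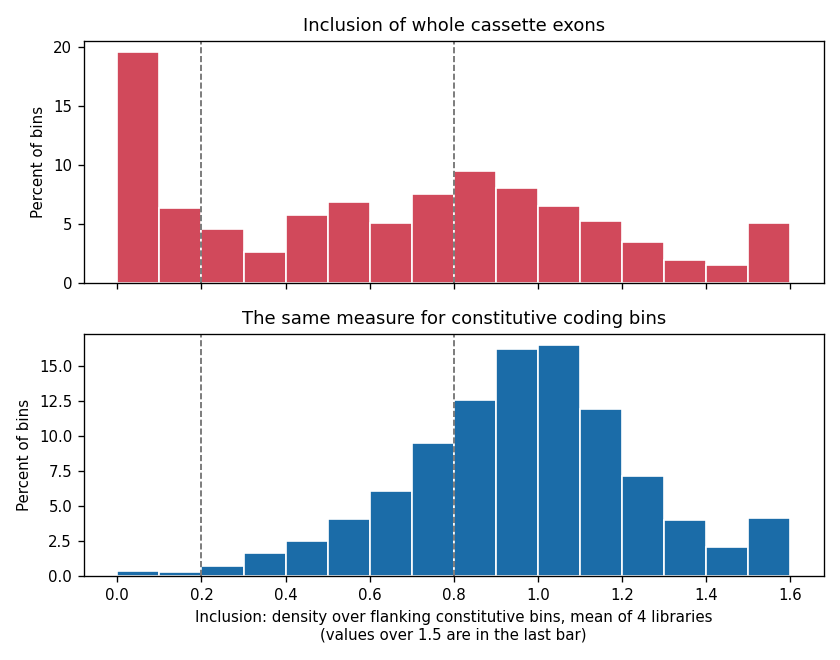
Percent of whole cassette exons (top) and of constitutive coding bins (bottom) by inclusion against flanking constitutive bins, as the mean of the 4 control OE libraries, with dashed lines at 0.2 and 0.8 and values over 1.5 in the last bar. Cassette exons have a separate group near 0, which constitutive bins lack.

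Mutually exclusive exons are pairs of neighbouring exons of equal length, of which a transcript holds one. Of 45 such annotated pairs, 9 had at least 50 counts in every library. In 6 of them the same exon held at least 80% of the counts in every library, and 3 had both forms. The pairs are shown because the exon choice alters the protein within a fixed length. Capitals mark the positions at which the exons of a pair differ, each exon read 5′ to 3′ on the gene's strand from GENCODE transcripts (GRCm38).

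Snap25, the vesicle fusion protein, used both exons of its pair. The upstream exon (chr2:136769743-136769860) encodes the form known as Snap25a and the downstream one (chr2:136770057-136770174) Snap25b. They differ at 31 of 118 positions, around the cysteine-rich stretch that anchors the protein in the membrane.
Snap25 upstream: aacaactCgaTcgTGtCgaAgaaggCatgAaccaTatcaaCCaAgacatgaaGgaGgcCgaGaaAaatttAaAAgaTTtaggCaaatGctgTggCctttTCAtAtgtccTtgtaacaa
Snap25 downstream: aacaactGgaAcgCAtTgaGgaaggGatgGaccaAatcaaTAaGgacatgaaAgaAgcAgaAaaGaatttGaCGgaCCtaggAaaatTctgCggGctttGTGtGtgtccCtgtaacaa
Counts of the upstream exon were 21520, 19518, 12846 and 15859 and of the downstream exon 19548, 20661, 12595 and 14665. The upstream exon thus took 52.4%, 48.6%, 50.5% and 52.0%, a mean of 50.9% ± 1.72. Both forms were bound in about equal measure in each library, and library 2 was the one below 50%.

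Gria1, an AMPA receptor subunit, also used both exons, the flop exon upstream (chr11:57309769-57309883) and the flip exon downstream (chr11:57310608-57310722), which set how fast the receptor desensitizes. They differ at 36 of 115 positions.
Gria1 flop: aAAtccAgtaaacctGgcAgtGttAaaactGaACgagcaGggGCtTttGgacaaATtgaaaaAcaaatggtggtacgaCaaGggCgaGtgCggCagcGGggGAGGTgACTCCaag
Gria1 flip: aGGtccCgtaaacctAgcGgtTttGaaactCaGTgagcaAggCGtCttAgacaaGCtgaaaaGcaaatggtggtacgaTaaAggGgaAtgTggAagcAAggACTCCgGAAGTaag
The flop exon had 78, 65, 45 and 80 counts and the flip exon 71, 112, 74 and 96. Flop took 52.3%, 36.7%, 37.8% and 45.5%, a mean of 43.1% ± 7.30, so that the libraries did not place one form clearly above the other. In Gria3, whose identifier is joined with Gm22413, the upstream exon took 15.5%, 25.6%, 13.3% and 7.69%, below 50% in each library.

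The other pairs were nearly settled on 1 exon. In Tpm1, a tropomyosin that stabilizes actin filaments, the upstream exon (chr9:67032466-67032541) had 10, 1, 0 and 6 counts against 1587, 1533, 1050 and 1357 for the downstream one (chr9:67031951-67032026).
Tpm1 upstream: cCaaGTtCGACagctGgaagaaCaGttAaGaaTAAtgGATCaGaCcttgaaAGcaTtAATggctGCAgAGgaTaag
Tpm1 downstream: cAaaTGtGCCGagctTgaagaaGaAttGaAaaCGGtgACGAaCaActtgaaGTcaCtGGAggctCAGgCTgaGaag
The upstream exon thus took 0.626%, 0.0652%, 0% and 0.440%, and the exons differ at 33 of 76 positions. In Rab6a, a GTPase of Golgi traffic, the upstream exon (chr7:100629666-100629771) took 0.471%, 0%, 0.316% and 1.98%, and the exons differ at 30 of 106 positions.
Rab6a upstream: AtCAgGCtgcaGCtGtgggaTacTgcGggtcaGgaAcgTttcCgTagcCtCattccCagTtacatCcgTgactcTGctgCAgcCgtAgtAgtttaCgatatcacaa
Rab6a downstream: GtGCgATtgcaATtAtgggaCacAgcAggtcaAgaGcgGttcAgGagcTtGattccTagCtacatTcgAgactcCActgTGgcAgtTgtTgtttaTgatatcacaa
In Cacnb4, the upstream exon had 0 counts in all 4 libraries, against 303, 406, 207 and 305 for the downstream one. Abi1, an actin regulator, also used the downstream exon alone, and Fam92a the upstream one at 100%. In Far1, an enzyme of ether lipid synthesis, the upstream exon took 100%, 96.6%, 98.9% and 100%.

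**Figure D5:**
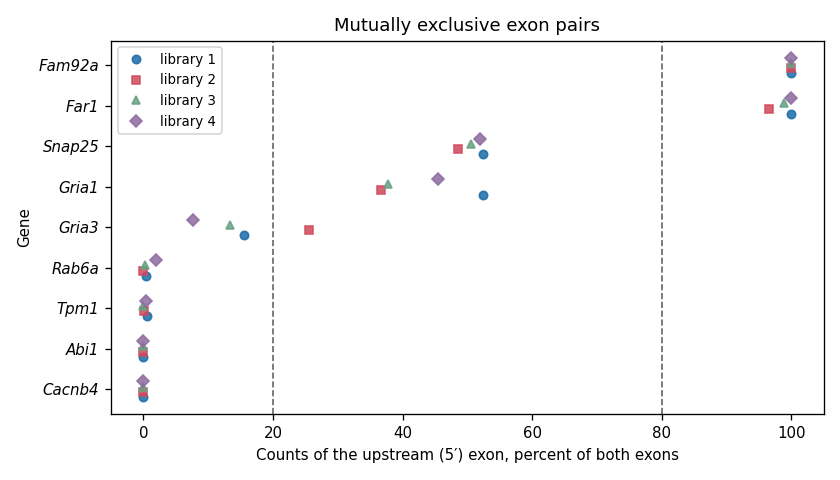
Percent of a pair's counts in the upstream exon for the 9 mutually exclusive pairs, 1 point per library, offset vertically. Snap25 and Gria1 lie near 50%, Gria3 below, and the other 6 near 0% or 100%.

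Among cassette exons of genes of interest, the N-terminal inserts of tau were in the smaller part of its mRNA. The Mapt exon 2 (chr11:104287123-104287209, 87 bases) had 45, 91, 40 and 51 counts and an inclusion of 0.158 ± 0.0328 against its flanks, and exon 3 an inclusion of 0.0660 ± 0.0234, from 8, 39, 25 and 27 counts. Against the gene's median these were 0.298 ± 0.0530 and 0.125 ± 0.0432. Both encode inserts of the projection domain. Grin1 mostly lacked its N-terminal cassette (chr2:25311343-25311405), which changes the receptor's response to protons and polyamines. That exon is given here as an exon largely absent from the bound mRNA.
Grin1 cassette: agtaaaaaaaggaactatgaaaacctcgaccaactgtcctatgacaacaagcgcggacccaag
It had 2, 3, 2 and 9 counts and an inclusion of 0.0561 ± 0.0282. The C-terminal cassette of Grin1, of 111 bases, stood at 0.184 ± 0.0522.

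Clathrin light chains carried their neuronal inserts. The Cltb exon (chr13:54597026-54597079) had 369, 333, 271 and 342 counts and an inclusion of 1.68 ± 0.106 against a flank available on 1 side. A value above 1 means more counts per effective base than in the flank.
Cltb insert: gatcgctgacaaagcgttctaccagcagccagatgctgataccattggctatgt
In Clta the 2 inserts stood at 1.52 and 1.74. Fyn, a Src-family kinase, used the exon with 90, 100, 56 and 91 counts at 0.726 and its alternative at 0.00625, the first being the form of brain. Camk2b, the beta CaM kinase, had exons at about 0 (of 129, 129, 114 and 33 bases) beside exons of 45, 72 and 75 bases at 0.750 ± 0.0412, 0.707 and 0.868. Against the gene's median the 45- and 72-base exons stood at 0.932 and 0.880. Mapk9, a stress kinase, was split, with an exon of 72 bases at 0.512 ± 0.0773. An exon of Slc25a3, the mitochondrial phosphate carrier, stood at 0.490 against a flank on 1 side and at 0.274 against the gene's median. Ppp3cb, a calcineurin subunit, had its 30-base exon at 1.05 ± 0.0157.

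Several skipped exons lay in genes of high level. In Map2, a dendritic microtubule-associated protein, the exons of 246 and 93 bases stood at 0.0102 ± 0.00821 and 0.0159 ± 0.0139, from at most 12 and 3 counts in a library, the second at 0.00608 against the gene's median. Kalrn had exons of 93 and 123 bases at 0.0699 ± 0.0101 and 0.0649 ± 0.0108 beside one of 192 bases at 1.13 ± 0.0697, each against a flank on 1 side. Against the gene's median the 123- and 192-base exons stood at 0.0255 and 0.438, so full use of the latter rests on the reference. Ndrg4, a protein of the NDRG family, kept its exons of 48 and 39 bases at 0.992 ± 0.0166 and 0.841 ± 0.0306. Add1, which caps actin filaments, had an exon of 90 bases at 1.27 ± 0.0983 and one of 87 bases at 0.160 ± 0.0260, which were 2.996 and 0.374 against the gene's median. In Ptprs, a receptor phosphatase of presynaptic terminals, the whole cassette exons of 600, 118 and 194 bases had at most 5 counts in any library.

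Both short and long exons spanned the range. Of 50 whole cassette exons of at most 27 bases in 35 genes, 19 had an inclusion against their flanks of at least 0.8, 18 of at most 0.2 and 13 lay between. Of 518 longer ones, 217, 129 and 172 did. The 21-base exon of Mef2d, a transcription factor, lay between, at 0.606 ± 0.0603 against its flanks; it was chosen after its value was seen (chr3:88161781-88161801).
Mef2d exon: actgaggaccatttagatctg
Kif1b, an axonal motor, differed within 1 gene: an exon at 0.00855 stood beside others at 0.954 and 0.959, of 42 and 18 bases. Against the gene's median these last 2 stood at 0.271 and 0.616, so their high use rests on the reference. Myo5a, a myosin motor, had an exon at 0.615, also chosen after its value was seen.

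Of the 10 cassette bins of genes at 100 CPM or more that lay nearest to an inclusion of 0.5, some moved with the choice of reference. The Ogdh exon (103 bases), of the oxoglutarate dehydrogenase of the citric acid cycle, had 0.495 ± 0.0530 against the gene and 0.531 ± 0.0557 against its flanks. Caprin1, of RNA granules, had 0.508 ± 0.0658 against the gene but 0.934 ± 0.0920 against its flanks, and Cct8, a chaperonin subunit, 0.491 ± 0.113 and 0.956 ± 0.0812. Against its flanks the Caprin1 exon (195 bases) was thus close to full use. The Cct8 bin is 3 bases long and not a whole exon, so its value does not give the use of an exon.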

How the data were processed

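Ribosome-bound RNA of 4 control OE mice was sequenced. The authors deposited whole-number counts per Ensembl gene and counts per exon bin, neither normalized. The submitters' processing notes name the aligner STAR 2.5.3a, the program HTSeq and the build mm10, without saying which step each served. Neither annotation release nor strand setting is stated. Exon bin counts of 201 single-bin coding genes were 0.489 of their gene counts at the median, and of 17 bin pairs on opposite strands over the same bases the smaller bin held 48.6%, so overlapping genes were not told apart by strand in the exon files. Reads in no bin (43.5% to 46.7%) stayed out of all sums. Of 39017 gene identifiers, 37607 had a symbol. The other 5 columns of the gene table were not used.

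CPM used TMM scaling in edgeR 4.0.16 (R 4.3.3); DESeq2 1.42.0 size factors were an alternative. TPM used the exon union of GENCODE release M 21. Exon bins were rebuilt from that release (GRCm38, the same build as mm10) and coordinates used only where bin numbers matched, for 31209 of 34765 single-gene identifiers (89.8%). Inclusion was measured in bins with at least 50 counts expected in every library, in genes with at least 3 constitutive bins. Counts simulated at known inclusion checked the calculation alone. They held no trend along the gene and no scatter beyond counting error, so they lend no support to the values in these data. No group was compared. Dixon's criterion for a library that stands apart was applied to the values of the 4 libraries.

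Genes named are the 30 highest by CPM, the cell type markers, the 6 highest and 2 lowest by TPM of each of 33 lists (600 genes, 596 found), the 12 with the largest spread and the 5 with the smallest, the 12 highest non-coding RNAs, the genes of an isoform list, the mutually exclusive pairs with at least 50 counts and the 10 cassette bins nearest 0.5. The members and lists were chosen with earlier results of these data known. Mef2d and Myo5a, and members of lists outside that rule, were chosen after their values were seen. The labels give no batch. Some genes that the rule selects are not reported here.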

Additional observations from a re-analysis of the deposited data

Results flagged for a closer look

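In 13 of 157 values tested (8.28%), 1 of the 4 libraries lay farther from the nearest other than Dixon's criterion for 4 values allows, where chance gives about 5%. The values include 10 genes chosen for their large spread, of which 6 stood out, so that share is not set against chance. Without them 7 of 147 values (4.76%) stood out, with library 1 apart in 6. Many of these values belong to genes chosen with earlier results known, and list sums share genes with them. This share is therefore not set against chance either. Over all 13, library 1 was the one apart in 8. It was high for Calb1 at 144 CPM (70.0 to 82.0 in the others), Rorb at 51.4 CPM (24.8 to 29.1), Rprm at 22.8 CPM (8.02 to 10.1), Cck at 361 CPM (165 to 193) and Doc2b at 59.1 CPM (14.01 to 21.04). It was low for Lars2 at 4252 CPM (9020.1 to 9889) and Cbln4 at 28.6 CPM (86.7 to 96.2), and for the inclusion of the 45-base Camk2b exon at 0.689 against 0.764 to 0.779. Library 2 was apart for Mterf1a at 204 CPM (1.14 to 3.42), Mterf1b at 163 CPM (0.589 to 2.38) and Alg1 at 112 CPM (4.93 to 8.17). Library 3 was apart for Tbc1d22a at 112 CPM (20.9 to 24.4), and library 4 for the summed level of the blood genes at 21.1 CPM (18.5 to 18.9), where 4 of the 5 genes have low exon support.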

How the results depend on the processing

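No paired analysis was possible because a single group was described and the replicate numbers only name libraries. The number of genes at 1 CPM or more stayed within 1.5 times of 14616 under every alternative run, from 13124 with exon bin sums to 14652 without 1 library. The share of the 100 top genes (27.2%) came to 20.95% without mitochondrial and non-coding genes and to 21.1% with exon bin sums, and to between 26.6% and 27.9% when each library was left out in turn. The log2 ratio of the layer II list over the glial and vessel lists (4.74) came to 5.56 without length correction and to 5.14 with exon bin sums, and to between 4.61 and 4.90 with a library left out. The common biological coefficient of variation (18.2%) came to 22.7% over all genes, and to between 16.1% and 19.8% with a library left out, 16.1% without library 1. With a count minimum of 20 in place of 50, 1005 cassette bins were mostly included (485 before) and 739 mostly skipped (394 before), since more bins were measured. With whole exons alone, an alternative added after the data had been seen, these were 214 and 151. With a library left out they ran from 481 to 560 and from 392 to 443. Flanking bins as the reference, also added after the data had been seen, gave 521 and 371. Of mutually exclusive pairs, 10 of 13 had a dominant exon at a count minimum of 20 (6 of 9 at 50), and 6 to 7 did with a library left out. Depth limits some of the exon results: Gria1 rests on 45 to 112 counts per exon and library.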
